A study of Mus musculus and Homo sapiens with 40 samples.

Results

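The sites described are the binding sites called with an antibody against the estrogen receptor (ER) in both HPC-7 lines and not called with an antibody against CEBPA in either. They were chosen by the peak calls themselves: a site of the p30 anti-ER list had to overlap a p42 anti-ER peak by at least 1 bp and no anti-CEBPA peak of either line. The names of the anti-ER lists carry a mark for calling without a fragment model that those of the anti-CEBPA lists lack, so the absence of an anti-CEBPA peak may rest in part on other calling settings, which was not tested. On chromosomes 1 to 19 and X, 2321 of the 33952 p30 anti-ER sites met this rule and are called members below. They made up 12% of the 19373 p30 anti-ER sites that overlapped a p42 anti-ER peak. Another 13337 of those sites (68.8%) also overlapped anti-CEBPA peaks of both lines and are called core sites, and the remaining ones overlapped anti-CEBPA peaks of 1 line only.

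HPC-7 cells are blood progenitors of the mouse. In the study they carried CEBPA as the full-length p42 isoform or the shorter p30 isoform, each fused to ERT2, a modified ligand-binding part of the estrogen receptor, delivered by a retroviral vector with GFP and sorted on GFP. Line and isoform were thus the same variable, and according to the methods of the study such cells were given hydroxytamoxifen, an addition that the labels do not name. Anti-ER and anti-CEBPA were measured in untreated cells with 1 library per line, H3K4me1 in untreated cells with 2 samples per line, and H3K27ac both without treatment and after 2 h of LPS (100 ng/mL), with 3 samples per group. Each group was deposited as 1 peak list, so replicate spread cannot be given and no test was run. The intervals are Wilson 95% intervals over sites or genes and cover counting error only, and sequencing depth is not known from the lists.

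CEBPA is a basic leucine zipper factor that drives myeloid differentiation and binds a short palindrome as a dimer. It works beside other myeloid and blood factors, among them PU.1, encoded by *Spi1*, the RUNX factors and the FOS and JUN proteins of AP-1. H3K27ac marks active promoters and enhancers, and H3K4me1 marks enhancers, whether active or not. All 10 progenitor markers checked, among them *Kit*, *Gata2* and *Runx1*, had H3K27ac at the promoter in both untreated lines, and all 3 T cell, 3 B cell and 5 non-blood markers had none. Of 3 erythroid markers, 2 had it in the p42 line and 1 in the p30 line, and of 5 markers of mature neutrophils or macrophages, 4 and 3. *Esr1*, the gene of the estrogen receptor itself, had no H3K27ac peak at its promoters in any of the 4 lists.

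The members fell into 2 kinds of sequence, and examples of each are printed from the GRCm39 genome, 5′ to 3′. A 200 bp window around the p30 anti-ER summit was called multi-copy where at least 50% of its 32-base words occurred 2 or more times in the genome, and single-copy otherwise. Capitals mark matches, on either strand, to the CEBP sequences (the palindrome TTGCGCAA or its variants TTGCACAA, TTGCATAA, TTGCAAAA, TTACGCAA and TTACATAA), to the looser form TTGCNNAA, to GAGGAAGT (PU.1), to TGTGGTTT (RUNX) and to TGANTCA (AP-1). The first group shows 100 bp from 4 sets of multi-copy members that are described with the folds.
chr13:12964104-12964203, plus strand: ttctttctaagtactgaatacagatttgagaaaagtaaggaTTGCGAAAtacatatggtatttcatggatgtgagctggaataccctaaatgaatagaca
chr17:15260911-15261010, plus strand: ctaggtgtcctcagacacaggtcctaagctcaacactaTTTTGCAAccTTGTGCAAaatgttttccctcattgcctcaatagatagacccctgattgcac
chr6:41174451-41174550, plus strand: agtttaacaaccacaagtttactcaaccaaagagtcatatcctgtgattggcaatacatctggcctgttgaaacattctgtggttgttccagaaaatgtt
chr12:111987579-111987678, plus strand: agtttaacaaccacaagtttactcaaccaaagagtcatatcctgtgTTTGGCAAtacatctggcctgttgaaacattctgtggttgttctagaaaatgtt
chr14:69524075-69524174, plus strand: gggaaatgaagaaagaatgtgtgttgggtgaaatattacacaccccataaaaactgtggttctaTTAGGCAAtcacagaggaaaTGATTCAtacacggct
The run from chromosome 13 was identical, base for base, at chr13:12757132-12757231 and chr13:13123847-13123946. The run from chromosome 14, nearest to *Slc25a37*, was identical at chr14:69742325-69742424. The chromosome 6 and 12 runs belong to 1 set of copies and differ by A47T and C90T, counted from 1 at the 5′ end with the chromosome 6 run as the reference.

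The second group shows 200 bp at single-copy members whose windows hold no annotated exon. In order, they lie at a promoter with H3K27ac in all 4 lists (the nearest coding start is that of *Pofut2*, 32417 bp away), at a distal site with H3K27ac in all 4 lists (in an intron, nearest gene *Actn1*), at a distal site with H3K4me1 in both lines and no H3K27ac (nearest gene *Pakap*), at a distal site with no peak of either mark (nearest gene *Skint6*), and at a site that gained H3K27ac with LPS in both lines (the *Serpina3f* promoter). The last run lies upstream of *Spi1* at a member described with the genes.
chr10:77062535-77062734, plus strand: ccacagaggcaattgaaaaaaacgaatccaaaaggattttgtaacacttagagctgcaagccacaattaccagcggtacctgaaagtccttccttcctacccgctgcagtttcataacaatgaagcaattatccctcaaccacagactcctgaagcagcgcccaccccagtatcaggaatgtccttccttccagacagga
chr12:80257639-80257838, plus strand: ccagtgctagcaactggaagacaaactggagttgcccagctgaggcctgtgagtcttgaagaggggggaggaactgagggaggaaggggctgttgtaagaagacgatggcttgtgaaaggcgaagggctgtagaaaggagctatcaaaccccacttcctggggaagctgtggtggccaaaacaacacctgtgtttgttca
chr4:57866126-57866325, plus strand: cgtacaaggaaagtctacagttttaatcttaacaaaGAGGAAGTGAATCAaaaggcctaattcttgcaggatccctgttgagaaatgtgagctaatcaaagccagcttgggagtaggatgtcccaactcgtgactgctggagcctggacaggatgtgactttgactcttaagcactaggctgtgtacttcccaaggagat
chr4:113418715-113418914, plus strand: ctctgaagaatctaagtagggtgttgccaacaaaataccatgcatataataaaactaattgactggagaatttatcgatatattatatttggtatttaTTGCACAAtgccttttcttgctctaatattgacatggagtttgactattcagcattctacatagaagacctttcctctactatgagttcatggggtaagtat
chr12:104180564-104180763, plus strand: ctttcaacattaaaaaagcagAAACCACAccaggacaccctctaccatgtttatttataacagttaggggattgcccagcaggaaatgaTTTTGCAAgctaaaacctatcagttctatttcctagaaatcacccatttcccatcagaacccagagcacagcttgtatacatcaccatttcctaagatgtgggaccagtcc
chr2:90911463-90911662, plus strand: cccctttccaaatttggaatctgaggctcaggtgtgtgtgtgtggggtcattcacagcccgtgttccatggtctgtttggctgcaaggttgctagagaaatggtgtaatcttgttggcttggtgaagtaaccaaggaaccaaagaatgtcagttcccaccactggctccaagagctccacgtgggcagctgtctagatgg
The *Pakap* window held overlapping PU.1 and AP-1 matches and no CEBP match. The *Skint6* window held a CEBP match near its centre, and the *Serpina3f* window held a RUNX and a CEBP match. The *Pofut2*, *Actn1* and *Spi1* windows held none of the sequences marked. The *Pakap* and *Serpina3f* windows were printed although another window of the same class ranked higher. The higher-ranked one with H3K4me1 only, at chr12:114527980-114528179, held a CEBP match. The higher-ranked one gained in both lines, nearest to *Ddi2*, held none of the sequences marked.

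The anti-ER fold over input describes the members, since the rule was made from these calls, and is given without a test. The p30 anti-ER fold had a median of 6.09 over the members (quartiles 4.77 and 8.03, range 1.20 to 68.0) and of 11.9 over the core sites (quartiles 8.20 and 19.1). In the p42 list the medians were 5.28 and 9.36. Most members were thus weaker than most core sites, and of 4 classes of fold with equal numbers of shared anti-ER sites, the lowest held 1406 members and the highest 61. The members were also narrower, with a median width of 240 bp against 293 bp. The p30 and p42 summits lay a median of 16 bp apart at the members and 6 bp apart at the core sites. Across sites, the folds of the lines had a Spearman correlation of 0.45 over the 2321 members and 0.78 over the 13337 core sites, values that share their library and input within a line.

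At the border of the rule, the member with the least overlap of a p42 anti-ER peak shared 9 bp with it (chr4:31775981-31776251, nearest gene *Map3k7*, p30 fold 3.15). The member closest to an anti-CEBPA peak lay 118 bp from it, and the next lay 125 bp away (chr7:140643970-140644233, nearest gene *B4galnt4*, fold 7.37). The shared site just outside the rule overlapped an anti-CEBPA peak by 65 bp (chr7:98632552-98632845, nearest gene *Wnt11*, fold 9.01). In all, 134 members (5.77%) had an anti-CEBPA peak within 500 bp and 1252 (53.9%) within 10 kb, and the median gap was 8709 bp.

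Multi-copy sequence was found at 359 members (15.5%, 14.1 to 17.0) against 573 core sites (4.30%, 3.97 to 4.65) and 2020 of all p30 anti-ER sites (5.95%). Seen the other way, 34.3% of the 1048 multi-copy sites shared by the anti-ER lists were members (95% interval 31.4 to 37.2), against 10.7% of the 18325 single-copy ones (10.3 to 11.2). In the whole lists the multi-copy share was 5.95% for p30 and 6.72% for p42 anti-ER, 4.58% and 4.23% for anti-CEBPA, 3.33% for H3K27ac and 3.86% for H3K4me1 of untreated p30-expressing cells. Multi-copy members lay at both ends of the fold range. They were 127 of the 232 members with the lowest p30 fold (54.7%), 44 of the 232 with the highest (19%) and 10.1% of the others. Of the 20 members with the highest p30 fold, 17 were multi-copy, against 5 of the 20 strongest core sites.

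**Figure D1:**
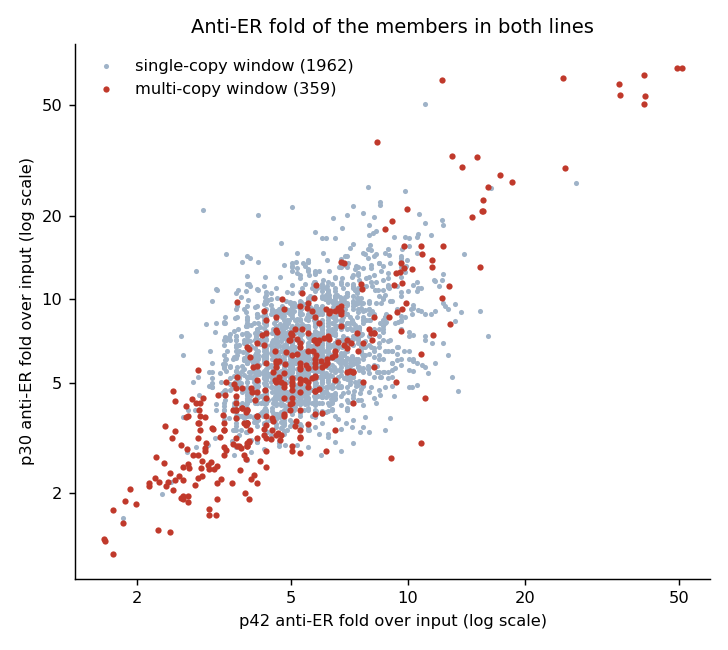
Each point is 1 of the 2321 members, with its anti-ER fold over input in p42-expressing cells (x axis, log scale) and in p30-expressing cells (y axis, log scale), and colour gives single-copy or multi-copy sequence. Multi-copy members lie at both ends: most points above a p30 fold of 25 and most points below a fold of 2 are multi-copy.

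Most of the strongest members belonged to sets of near-identical copies. Among the exceptions was the member with the highest p30 fold, in an intron nearest to *Raet1e* on chromosome 10. It had a p30 fold of 68.0, a p42 fold of 50.7 and no mark, and 1 of its words occurred 385 times in the genome. Of the members, 205 shared at least 50% of their words with another member and formed 48 sets of 2 to 40 sites. The chromosome 13 set printed first lies in the region of *Prl2c2* and *Prl2c3*, genes of the prolactin family, and its 3 sites had p30 folds of 68.0, 64.2 and 59.7 and p42 folds of 49.3, 40.7 and 35.0. None of the 3 had a peak of H3K27ac or H3K4me1 in any list. The copies at the promoters of *Dynlt2a2* and *Ermard* on chromosome 17 had p30 folds of 62.8 and 54.5 and p42 folds of 25.1 and 35.1, again without a mark. The printed *Ermard* window held the CEBP sequence 2 times, in tandem. A pair near *Dynlt1b* and *Ppp1r2-ps1*, also on chromosome 17, had p30 folds of 54.1 and 50.5 and p42 folds of 40.8 and 40.6. The pair nearest to *Slc25a37*, the mitochondrial iron carrier of erythroid cells, and *Gm16867* had p30 folds of 22.7 and 20.8 and p42 folds of 15.6 at both.

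The set with the printed chromosome 6 and 12 runs had 22 members on 12 chromosomes, with up to 92 copies of a word in the genome. The change A47T was present in 16 of the 22 and absent in 6. The 6 copies without it had p30 folds of 20.9 to 32.7 (median 27.6), and the 16 with it had folds of 7.14 to 19.1 (median 11.1), so these did not overlap. In the p42 list the folds were 9.92 to 16.1 (median 14.4) without and 5.19 to 12.8 (median 8.92) with the change, and these ranges did overlap. An H3K27ac peak in p42-expressing cells, in either condition, was found at 5 of the 6 and at 5 of the 16, and in p30-expressing cells at 2 of the 6 and at 1 of the 16. The copies differ in their surroundings as well, and reads from identical copies cannot be assigned to 1 of them, so the fold of a single copy is uncertain. Only copies that met the rule were compared, and the reference is the copy with the highest p30 fold. The folds belong to the calls that chose the members, and an effect of the base was not tested.

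By place, 444 members (19.1%, 95% interval 17.6 to 20.8) lay at a promoter, here meaning between 1000 bp before and 100 bp after the start of any annotated transcript. The core sites had 14.2% there and all p30 anti-ER sites 15.1%. Of the others, 1175 members (50.6%) lay in introns, 512 (22.1%) in intergenic sequence and 190 (8.19%) in exons, against 50.4%, 27.9% and 7.57% of the core sites. The nearest start of a protein-coding transcript was a median of 16019 bp away at the members and 24669 bp at the core sites, and 23.4% against 35.1% lay over 50 kb from any such start. Members of single-copy sequence were at promoters in 20.9% and multi-copy ones in 9.19% of cases. With protein-coding transcripts only, the share of members at promoters was 8.79%, with no value of the core sites set beside it.

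Members carried histone marks more often than the core sites. In untreated cells H3K27ac was found at 1683 members (72.5%, 70.7 to 74.3) in p42-expressing and at 1547 (66.7%, 64.7 to 68.5) in p30-expressing cells, against 48.5% and 42.3% of the core sites and 49.1% and 45.0% of all p30 anti-ER sites. H3K4me1 was found at 1075 members (46.3%) in p42- and 1273 (54.8%) in p30-expressing cells, against 33.8% and 36.2% of the core sites. The difference was wider at distal sites, where 68.9% of the members and 43.5% of the core sites had H3K27ac in untreated p42-expressing cells and 62.7% and 37.3% in p30-expressing cells. At promoters the shares were closer, at 87.6% against 79.2% and 83.6% against 73.1%. Sites with neither mark in any list made up 18.5% of the members and 42.8% of the core sites.

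**Figure D2:**
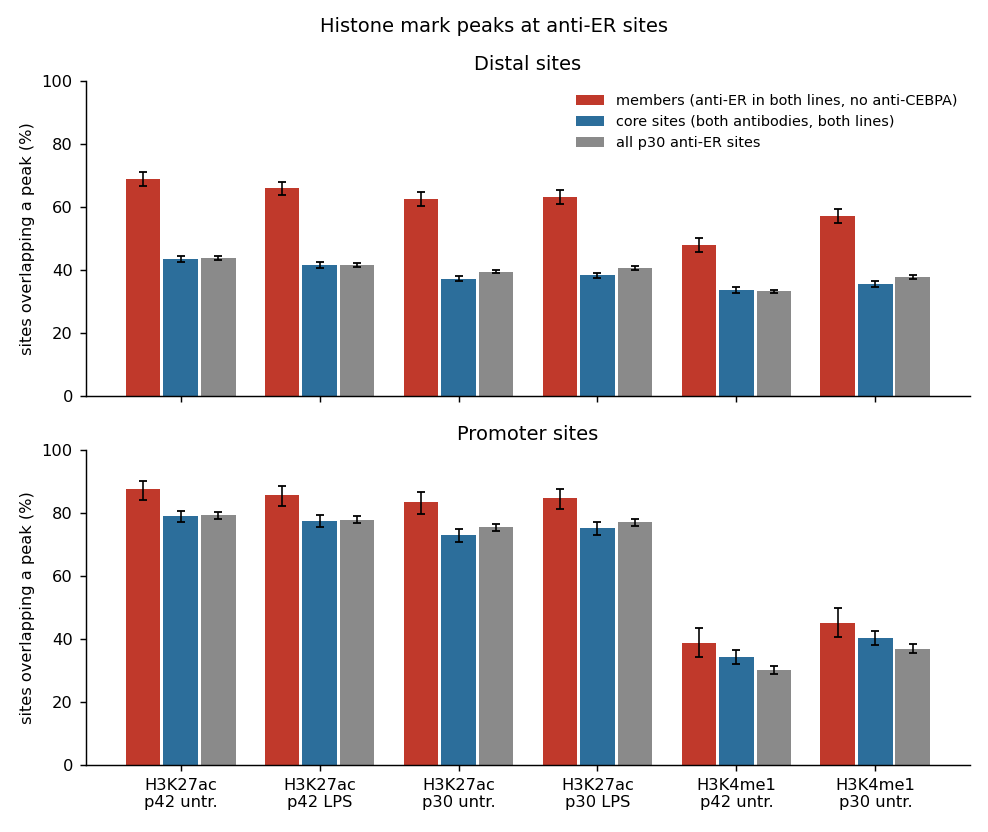
Share of distal sites (top) and promoter sites (bottom) that overlap a peak of each list (y axis, percent), for the members, the core sites and all p30 anti-ER sites, with 95% intervals over sites. Distal members stand above both other sets in all 6 lists, for example at 68.9% against 43.5% and 43.7% for H3K27ac of untreated p42-expressing cells.

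The comparison was repeated within the 4 classes of p30 anti-ER fold. In the lowest class, 62.2% of the members and 26.6% of the core sites had H3K27ac in untreated p30-expressing cells. In the next classes the values were 74.4% against 31.3% and 74.2% against 42.4%. In the highest class, with 61 members, they were 62.3% (49.7 to 73.4) against 55.8% (54.4 to 57.3), so the intervals overlapped there, and 39.3% of those members were multi-copy. Where H3K27ac was present, its peaks were of similar height. The median fold of the overlapping peak was 12.9 at the members and 13.5 at the core sites in untreated p42-expressing cells, and 11.1 and 10.8 in p30-expressing cells.

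The marks followed the kind of sequence. Of the 1962 single-copy members, 81.7% and 75.6% had H3K27ac in untreated p42- and p30-expressing cells, against 48.9% and 42.8% of the single-copy core sites. Of the 359 multi-copy members, 22.6% and 17.8% did, against 39.8% and 31.1% of the multi-copy core sites. Neither mark was found at 8.46% of the single-copy and 73.5% of the multi-copy members. How reads from repeated sequence were placed could affect both the anti-ER calls and the mark calls at multi-copy members, and its part was not tested.

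Around the distal members, coverage by H3K27ac peaks was highest beside the summit rather than at it. In untreated p42-expressing cells 65.0% of distal members were under a peak 250 bp to the left of the summit, 59.2% at the summit and 65.1% at 250 bp to the right, and at 3000 bp to the right the share was 26.1%. The core sites had the same shape at a lower level, with 40.1%, 33.7% and 39.9%. In the p42 H3K4me1 list the dip was deeper, with 40.9%, 29.5% and 42% at the distal members. Within 5 kb of the summit on both sides, H3K27ac peaks of untreated p42-expressing cells covered a median of 2925 bp around the members and 967 bp around the core sites. In p30-expressing cells the medians were 2697 bp and 661 bp.

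**Figure D3:**
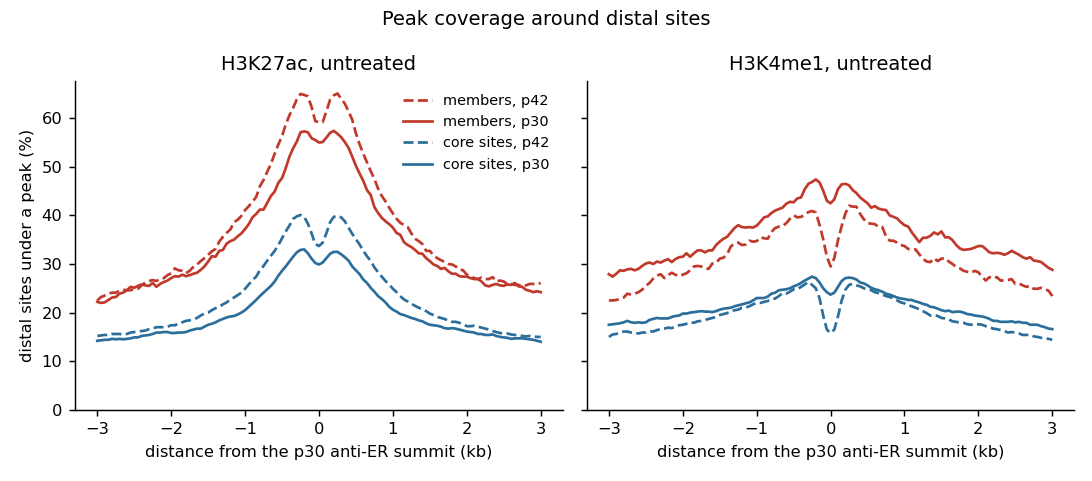
Share of distal sites that lie under an H3K27ac (left) or H3K4me1 (right) peak of untreated cells (y axis, percent) by distance from the p30 anti-ER summit (x axis, kb), for members and core sites in both lines. All curves dip at the summit, and the members' curves lie above those of the core sites across the 3 kb on both sides.

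Between the lines, 1500 members (64.6%) had untreated H3K27ac in both, 183 (7.88%) in p42- and 47 (2.02%) in p30-expressing cells only. For the core sites the shares were 41.1%, 7.41% and 1.23%. H3K4me1 leaned the other way, with 126 members (5.43%) in p42- and 324 (14%) in p30-expressing cells only, in lists of 134650 and 168028 peaks. The core sites (5.62% and 8.09%) and all p30 anti-ER sites (5.15% and 9.94%) leaned that way too. With as many peaks taken from each H3K4me1 list, the share of members in p30-expressing cells was 51.8%.

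The CEBP sequence was present in 331 member windows (14.3%, 12.9 to 15.7), in 43.3% of core windows and in 31% of all p30 anti-ER windows. It was found in 2.59% of windows 5 kb to either side of the members and in 2.43% of windows at the starts of all protein-coding genes, both of the same 200 bp length. The members thus held it less often than the core sites and more often than their surroundings. Its matches lay a median of 10.5 bp from the summit at the members and 5.00 bp at the core sites. The looser form was present in 31.9% of the members, 60.9% of the core sites and 8.34% of the windows nearby. The difference from the core sites was there in each of the 4 classes of p30 fold, with 13.4% against 37.5% in the lowest and 29.5% against 49.9% in the highest. The sequence TGATGCAA, shared by CEBP and ATF4 dimers, was held by 3.19% of the members and 7.4% of the core sites, and 0.452% of the windows nearby.

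Sequences of other blood factors were more frequent at the members. The PU.1 sequence was present in 180 members (7.76%) against 4.21% of the core sites and 1.34% of windows nearby, the RUNX sequence in 142 (6.12%) against 3.25% and 1.70%, and the AP-1 sequence in 248 (10.7%) against 8.29% and 5.69%. At least 1 of these 3 was found in 22.9% of the members (21.3 to 24.7), 14.9% of the core sites (14.3 to 15.6) and 8.4% of windows nearby. At single-copy members the PU.1 share was 8.87% and at multi-copy ones 1.67%. PU.1 matches lay a median of 39.5 bp from the summit, farther than CEBP matches did. The GATA sequence AGATAA (11% of members, 12% of core sites, 11.9% of windows nearby) and the single arm of the estrogen response element (ERE), AGGTCA (11.1%, 10.7% and 12.8%), had member shares whose intervals overlapped both others. A complete estrogen response element, with arms facing each other across 3 bases, was found in 2 of 2321 members and 4 of 13337 core sites. Of the 4642 windows nearby, 1 held it. In all, 1162 members (50.1%) held none of the CEBP, PU.1, RUNX and AP-1 sequences.

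**Figure D4:**
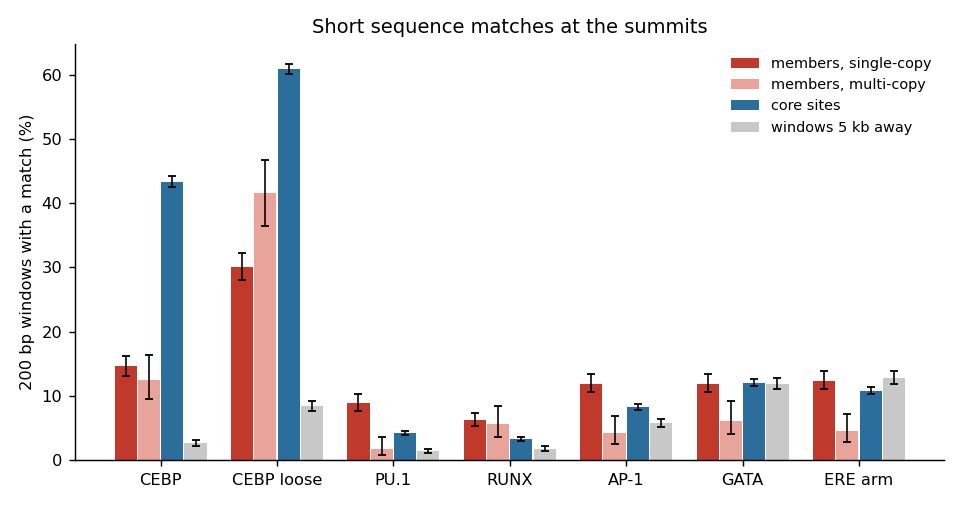
Share of 200 bp windows (y axis, percent) with a match to each short sequence (x axis) at single-copy members, multi-copy members, core sites and windows 5 kb from the members, with 95% intervals over windows. CEBP is lower at both kinds of members than at core sites, and PU.1 is highest at the single-copy members (8.87%).

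Members with the CEBP sequence had H3K27ac less often than those without it. Of the 286 single-copy members with the CEBP sequence, 65.4% had H3K27ac in untreated p30-expressing cells, against 77.3% of the 1676 without it. In the core sites the same comparison gave 31.5% against 51.3%. With the PU.1 sequence, the share was 77.6% of 174 single-copy members and 75.4% of those without, whereas in the core sites it was 76.4% with and 41.3% without. The members also had a higher GC content, a median of 47.0% against 43.5% at the core sites and 44.5% in the windows nearby.

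After LPS most members kept their H3K27ac state. In p42-expressing cells 1576 members (67.9%) had a peak in both conditions, 107 (4.61%) lost it, 44 (1.90%) gained it and 594 (25.6%) had none. In p30-expressing cells 1468 (63.2%) kept it, 79 (3.40%) lost it, 97 (4.18%) gained it and 677 (29.2%) had none. Over all p30 anti-ER sites the background was 4.01% lost and 2.01% gained in p42-, and 2.49% lost and 3.69% gained in p30-expressing cells. The members' shares lay near this background, and only the share lost in p30-expressing cells had an interval (2.74 to 4.22) that excluded it. Losses and gains mostly differed between the lines: 15 members (0.646%) lost and 11 (0.474%) gained H3K27ac in both, and 1409 (60.7%) kept it in both. Over all p30 anti-ER sites the shares were 0.504%, 0.468% and 39.8%, so the low shares lost or gained in both were not particular to the members.

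**Figure D5:**
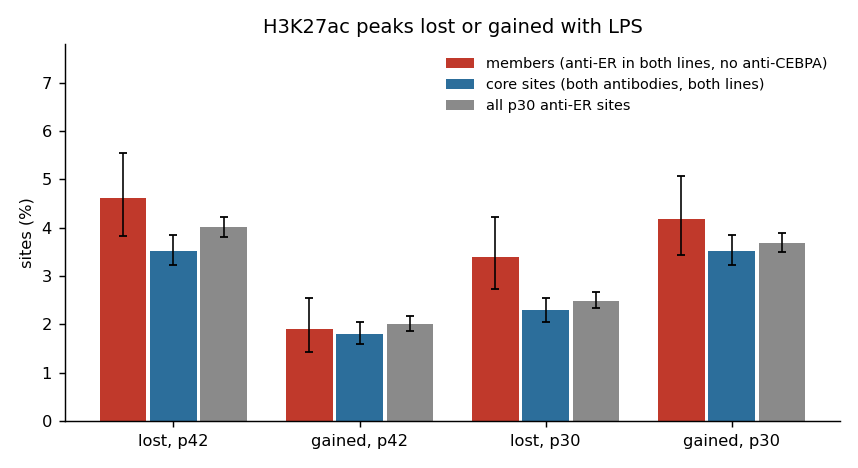
Share of sites (y axis, percent) whose H3K27ac peak was lost or gained with LPS in each line, for the members, the core sites and all p30 anti-ER sites, with 95% intervals over sites. Losses exceed gains in p42-expressing cells (4.61% and 1.90% of the members), whereas in p30-expressing cells the order is the reverse (3.40% and 4.18%).

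Since more members than other sites started with H3K27ac, the shares were also taken over the sites that could change. Of the members without H3K27ac in untreated p30-expressing cells, 97 of 774 gained it with LPS (12.5%, 10.4 to 15.1), against 6.11% of 7690 core sites (5.6 to 6.67) and 6.70% of all p30 anti-ER sites (6.35 to 7.07). In p42-expressing cells the gains were 44 of 638 members (6.90%, 5.18 to 9.13), 3.50% of the core sites (3.09 to 3.96) and 3.96% of all sites (3.68 to 4.26). At single-copy sites they were 18.6% of 479 members against 6.13% of the core sites in the p30 line, and 11.9% of 360 members against 3.54% in the p42 line. When peaks of all 4 lists were merged into regions first, the gains in the p30 line were 8.31% of the members (6.45 to 10.6) and 4.50% of the core sites (4.04 to 5.00). In the p42 line they were 3.54% (2.32 to 5.34) and 2.05% (1.74 to 2.42), with intervals that overlapped. A peak of untreated cells within 1 kb went with the gains. It was present at 25.2% of the members and 12.5% of the core sites that lacked a peak in the p30 line, and at 25.7% and 11.1% in the p42 line. With such a neighbour, 35.9% of the members (29.5 to 42.8) and 26.1% of the core sites (23.4 to 29) gained H3K27ac in the p30 line, against 4.66% (3.22 to 6.70) and 3.24% (2.84 to 3.69) without. In the p42 line the values were 20.1% (14.7 to 26.9) and 19.6% (16.9 to 22.6) with it, and 2.32% (1.30 to 4.11) and 1.48% (1.20 to 1.81) without, and the intervals of members and core sites overlapped in both cases. Losses over sites with a peak were 6.36% of the members (5.29 to 7.63), 7.25% of the core sites and 8.17% of all sites (7.76 to 8.59) in the p42 line. The members' interval lay below that of all sites, whereas taken over all members, with or without a peak, the share lost was 4.61% against 4.01% of all sites. In the p30 line the losses were 5.11% (4.12 to 6.32), 5.40% and 5.53%, with overlapping intervals, so the larger share lost that is given above for that line was not seen among sites with a peak.

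The members that gained H3K27ac in both lines were led by a site in an intron nearest to *Ddi2* (p30 anti-ER fold 9.88), where the H3K27ac fold after LPS was 3.81 (p42) and 4.84 (p30). The second lay at the promoter of *Serpina3f*, a serine protease inhibitor, with folds of 5.22 and 4.09, and the third lay 66600 bp from *Rap2b*, with folds of 4.30 and 3.04. Loss in both lines was led by a multi-copy site on chromosome 12 (chr12:115409847-115410367) and by sites in introns near *Commd9* (untreated folds 5.45 in p42- and 3.67 in p30-expressing cells) and *St6gal1* (4.19 and 3.02). These were weak peaks beside the median of 12.9 given above.

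The members were nearest to 1859 of 21584 protein-coding genes (8.61%), and 1512 of these genes were nearest to a single member. A member lay at the promoter of 252 genes (1.17%), of which 26 also had a core site there. Of all 21584 protein-coding genes, 1148 (5.32%) had a core site at the promoter. *Potefam3b* was nearest to the most members, 12, all multi-copy and with folds of at most 3.05, followed by *Apba2* with 8, also all multi-copy. The other leading genes were *Zfp386* (6 members), *Skint6*, *Rbpj*, *Abr*, *Fut8*, *Tbl1xr1*, *Sgms1*, *Runx2* and *Spry2* (5 each). Nearest did not always mean near. The members lay 214229 to 1238340 bp from *Zfp386*, 223726 to 282738 bp from *Skint6* and 42981 to 281873 bp from *Runx2*. They lay 3032 to 11613 bp from *Abr* and 6 to 12288 bp from *Sgms1*. *Rbpj* encodes the DNA-binding factor of Notch signalling and *Runx2* a RUNX factor, and none of their members was multi-copy.

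Gene lists were read against the shares of all genes nearest to a member (8.61%) and with a member at the promoter (1.17%). Of 18 myeloid fate factors, 8 (44.4%, 24.6 to 66.3) were the gene nearest to a member, against 8.61% of all genes, and 2 had a member at the promoter. The list is small and the interval wide, and core sites were nearest to 14 of the same 18 genes (77.8%), against 32.6% of all genes. *Spi1*, the gene of PU.1, had 2 members at its promoters. The one 92 bp from a start (chr2:90926883-90927195) had anti-ER folds of 18.1 in p30- and 6.78 in p42-expressing cells. Its H3K27ac peak had a fold of 71.0 before and 113 after LPS in p30-expressing cells, and of 78.7 and 88.6 in p42-expressing cells. The other (chr2:90911419-90911705), whose sequence is printed above, had anti-ER folds of 10.8 and 8.64 and H3K27ac folds before and after LPS of 87.5 and 58.8 (p42) and of 57.4 and 56.3 (p30). *Gfi1*, a transcriptional repressor of granulocyte development, had a member 160 bp from a start, with anti-ER folds of 7.77 and 6.48. *Rara*, the retinoic acid receptor alpha, had a member 390 bp from a start, with a p30 fold of 13.9 and a p42 fold of 5.53.

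Of 33 genes of NF-kB and Toll-like signalling, 9 (27.3%, 15.1 to 44.2) were nearest to a member and 2 had one at the promoter. Core sites were nearest to 17 of the 33 (51.5%), and 4 had a core site at the promoter. *Irak3*, an inhibitor of Toll-like receptor signalling, had 2 members at its promoter, the better with a p30 fold of 9.25 and a p42 fold of 7.92. *Tnfaip3*, which encodes the NF-kB inhibitor A20, had 1, with folds of 6.65 and 4.56. Its H3K27ac fold before and after LPS was 39 and 33.5 (p42), and 29.1 and 56.1 (p30). Members were also nearest to the inhibitor genes *Nfkbia* and *Nfkbiz*, and at *Nfkbiz* H3K27ac was kept in p42- and gained in p30-expressing cells. At *Nfkb1* the fold before and after LPS was 13.7 and 8.60 (p42), and 44.6 and 8.15 (p30). Over the 9 genes, with the best member of each, the H3K27ac fold was higher with LPS at 3 and lower at 6 in the p42 line, and higher at 6, lower at 2 and gained at 1 in the p30 line. These folds have no replicates behind them, and each is read at the summit of the overlapping peak. The 9 ribosomal protein genes leaned the same way, with 1 higher and 5 lower (p42), and 4 higher and 2 lower (p30). Stem and progenitor factors did too, with 0 higher and 2 lower (p42), and 2 higher and 0 lower (p30). The 3 replication and E2F targets had 1 higher and 2 lower in both lines. Myeloid fate factors had 3 higher and 4 lower in both, and estrogen receptor targets 0 higher and 4 lower in both. Over all members that kept H3K27ac, the percentile of the peak within its list changed by a median of −2.40 (p42) and −0.235 (p30). This percentile is another measure than the fold counted for the genes. Lower values with LPS in the p42 line were thus not particular to these genes.

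Of 44 inflammatory cytokines and chemokines, 14 (31.8%, 20.0 to 46.6) were nearest to a member and 1, *Il1b*, had a member at the promoter of a transcript, with folds of 5.46 and 4.56 and no H3K27ac in any list. Core sites were nearest to 26 of the 44 (59.1%), and 10 had a core site at the promoter. *Tnf* and the neighbouring *Ltb* each had 1 member within 1500 bp, and H3K27ac was present there in all 4 lists. At *Ltb*, the gene of lymphotoxin beta, its fold before and after LPS was 75.7 and 70.5 (p42), and 31.3 and 75.4 (p30). At *Osm*, the gene of oncostatin M, it was 50.9 and 21.4 (p42), and 14.7 and 20.9 (p30). At *Il15* it was 10.1 and 4.92 (p42), and 11.2 and 3.9 (p30), and at *Tnf* 51.1 and 44.1, and 55.8 and 50.5. The member nearest to *Il12b* kept H3K27ac in p42- and gained it in p30-expressing cells. Over the 14 genes the fold was higher with LPS at 2 and lower at 8 in the p42 line, and higher at 4, lower at 5 and gained at 1 in the p30 line, and 4 had no peak in either. The medians over all members that kept H3K27ac are given with the NF-kB genes.

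In the other lists, 3 of 10 genes of the C/EBP family and Tribbles were nearest to a member (*Cebpb*, *Cebpd* and *Trib1*), 5 of 23 of the AP-1 family (*Fosl2*, *Jun*, *Atf3*, *Atf6* and *Batf*), 4 of 18 stem and progenitor factors, 6 of 29 estrogen receptor targets and 4 of 27 stress response genes, with none at a promoter but *Psat1* and *Gadd45b* of the last. Core sites were nearest to 8, 18, 14, 16 and 24 of the genes of these lists, in the same order. The best members at *Fosl2* and *Jun* lay 150797 and 104380 bp from a start. *Psat1*, an enzyme of serine synthesis, had a member 124 bp from a start, with anti-ER folds of 15.1 in p30- and 8.88 in p42-expressing cells. Replication and E2F targets (3 of 27), ribosomal proteins (9 of 81) and replication-dependent histones (4 of 67) stood near the share of all genes.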

How the data were processed

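Peak lists of ChIP-seq in HPC-7 cells were used as deposited. Following its methods section, the authors trimmed reads with Trim Galore (0.6.6 per the labels), aligned them with Bowtie2 to mm39, left out duplicates marked by Picard and called peaks with MACS2 against input, after pooling samples for the histone marks. No filter on mapping quality is named there, and by default that aligner places a read with equally good positions at 1 of them. Each list deposited by the authors gives the fold over local background (a ratio), the −log10 of the p-value and the −log10 of the q-value at the summit. Lists reach down to a q-value of 0.05, and give no read totals. The ATF4 list, from a human line, was not used here.

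Overlap meant 1 bp. The H3K27ac fold given for a member is that of the overlapping peak with the lowest q-value, at that peak's own summit. This summit can lie outside the member, since these peaks had a median width of 2328 bp in untreated p42-expressing cells. A fold can thus also change where peaks join or split between lists. Summits were placed with GENCODE M39 on GRCm39, whose chromosome lengths held all peaks. Windows of 200 bp were scanned for short sequences, and their 32-base words were counted in the genome on both strands. Intervals are Wilson 95%. Named sites were the 3 with the lowest q-value in each class of place and mark. Named genes were the 10 nearest to most members, *Spry2*, which has as many as the last of them, and, per list, those with a member at the promoter, up to 8; others were named after their values were seen, as were the choice of printed copies, the multi-copy split, the shares over sites that could change and the sums of 3 sequences. Windows printed at *Pofut2*, *Actn1* and *Skint6* are the best-ranked single-copy ones free of exons, and those at *Pakap* and *Serpina3f* are the next-ranked ones of their classes. The members and lists were chosen with earlier results of these data known. Steps were tested on simulated lists with known overlaps. Python 3.11.15, numpy 2.4.6, pandas 2.3.3 and matplotlib 3.10.9 were used.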

Additional observations from a re-analysis of the deposited data

Results flagged for a closer look

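The number of members with H3K27ac changed in opposite directions with LPS in the 2 lines. It fell by 63 in p42-expressing cells, from 1683 to 1620, and rose by 18 in p30-expressing cells, from 1547 to 1565. The difference was not tested, since each line and condition has 1 pooled list. Relative to untreated cells, the change over the members was −3.74% (p42) and 1.16% (p30). It was −3.54% and 2.92% over the core sites, and −4.07% and 2.67% over all p30 anti-ER sites. The opposite directions were thus not particular to the members. The whole lists moved the same way, from 129345 to 107114 peaks in p42- and from 139190 to 142385 in p30-expressing cells. With as many peaks taken from each list, the change among the members was −46 and 18, and over single-copy members it was −52 and 21.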

How the results depend on the processing

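No paired analysis was possible because each group compared has 1 peak list, called on 1 library or on pooled samples. Leaving out a replicate was not possible for the same reason. Of 78 values recomputed under other settings, 51 stayed within the interval of the value reported (for counts, within 1.5 times) and 27 moved, and the cause of a move was not tested unless stated. The number of members was 1893 with anti-ER peaks at q under 1e-05, 2049 with 50% of each peak shared, 2187 without an anti-CEBPA peak within 500 bp, and 2375 when p42 anti-ER sites were counted. The q setting moved the shares with H3K27ac in p42- (75.3%), with H3K4me1 in p42- and p30-expressing cells (49.2% and 57.7%) and with the CEBP sequence (15.8%). Single-copy members alone gave 20.9% at promoters, 81.7% and 75.6% with H3K27ac and 53.5% and 63.4% with H3K4me1 in p42- and p30-expressing cells. The promoter share was 40.4% within 2500 bp of a start and 8.79% with protein-coding transcripts only. With the summit inside the peak, H3K27ac gave 62.9% and 59.3%, H3K4me1 28.0% and 40.4%, and p42-expressing cells gained 3.02% and lost 5.99%. Lists of equal length gave 51.8% with H3K4me1 in p30-expressing cells. With presence at q under 1e-05, p42-expressing cells gained 1.29% and lost 3.40%, and p30-expressing cells gained 2.89% and lost 2.07%. Merged regions gave 0.905% and 2.63%, and 2.41% and 1.98%. The looser sequence gave 31.9%. Taken over all members, losses exceeded gains in p42- and gains exceeded losses in p30-expressing cells under each of these settings. Over the sites that could change, the p42 order did not hold. There 6.90% of the members without a peak gained it (5.18 to 9.13) and 6.36% of those with a peak lost it (5.29 to 7.63). Depth could not be assessed from the lists.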

Other observations

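The share of shared anti-ER sites that were members varied little by chromosome, from 9.65% on chromosome 1 to 15.4% on chromosome 7. On chromosome 17, 36 of 125 members were multi-copy, the most of any chromosome, and on chromosome X 10 of 40. Over single-copy sites the range was 8.72% on chromosome 17 to 13.4% on chromosome 6. Of the members, 266 (11.5%) lay within 10 kb of another member.

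The highest single-copy member by p30 anti-ER fold lay in an exon on chromosome 1 (chr1:52694377-52694884, nearest coding start at *Nemp2*). Its fold was 50.5 in p30- and 11.1 in p42-expressing cells, and H3K27ac was present in all 4 lists, with folds before and after LPS of 37.5 and 21.9 (p42) and of 39.1 and 17.1 (p30). The promoter of *Aqp9*, an aquaglyceroporin of neutrophils and liver, had a member 60 bp from a start, with anti-ER folds of 25.2 and 16.3 and H3K27ac folds before and after LPS of 44.3 and 37.5 (p42) and of 28.6 and 25.5 (p30). No member lay within *Cebpa* or *Esr1*.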
